A study of Homo sapiens with 12 samples.

Results

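The 10 replication-dependent histone H3 genes of the HIST1 cluster on chromosome 6, HIST1H3A to HIST1H3J, were examined for CASP8AP2, NPAT, HINFP and E2F1 at their promoters by ChIP-Seq, the sequencing of DNA that comes down with a factor when an antibody to it is added to cross-linked chromatin. A region belonged to a gene when its summit, the point of the highest read pile, lay within 1 kb of the transcription start site (TSS) of that gene on the NCBI36 build. By this rule 40 of the 1636159 regions listed in 8 libraries were at H3 genes. The cells were U2OS, an osteosarcoma line, and hTERT-RPE1, epithelial cells immortalized with hTERT (telomerase), both cultured with serum and with no treatment named. Each factor was precipitated once in each line with 5 µg of antibody. Goat IgG was the control precipitation for HINFP. The other 3 factors had rabbit IgG and shared it within a line.

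Replication-dependent H3 genes are intronless genes that are transcribed in S phase to supply H3 for new nucleosomes, and their mRNAs end in a stem-loop instead of a poly(A) tail. NPAT is a coactivator of these genes that is phosphorylated by cyclin E-Cdk2, and it gathers with CASP8AP2 (also known as FLASH), a protein needed for histone mRNA processing, in the histone locus body. HINFP is a zinc finger protein best known at H4 promoters, and E2F1 is an activator of genes of the G1/S transition. The 10 genes are also called H3C1 (HIST1H3A), H3C2 (HIST1H3B), H3C3 (HIST1H3C), H3C4 (HIST1H3D), H3C6 (HIST1H3E), H3C7 (HIST1H3F), H3C8 (HIST1H3G), H3C10 (HIST1H3H), H3C11 (HIST1H3I) and H3C12 (HIST1H3J). The first 7 of them lie between 26128697 (HIST1H3A) and 26379591 (HIST1H3G) on chromosome 6, and the other 3 between 27885821 (HIST1H3H) and 27966549 (HIST1H3J). In the order of genes in the RefSeq table of GRCh38, each H3 gene has another histone gene on either side. For example, HIST1H3B is followed toward higher coordinates by HIST1H2AB, HIST1H3A by HIST1H4A and HIST1H3C by HIST1H1C. A long region can therefore hold reads from the promoter of a neighboring gene as well.

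Promoters of 8 of the 10 genes were found in the RefSeq promoter table. Stretches of 150 bases before the start are shown for 3 genes with NPAT and CASP8AP2 peaks in hTERT-RPE1 cells (HIST1H3B, HIST1H3C and HIST1H3H). They are also shown for 2 genes with no significant peak in either line (HIST1H3F and HIST1H3G). Capitals mark CCAAT and TATAAA, or their reverse complements. The stretches lie on GRCh38.p14 at chr6:26032100-26032249 (minus strand, HIST1H3B), chr6:26045234-26045383 (plus, HIST1H3C), chr6:27809901-27810050 (plus, HIST1H3H), chr6:26250636-26250785 (minus, HIST1H3F) and chr6:26271414-26271563 (minus, HIST1H3G).
HIST1H3B: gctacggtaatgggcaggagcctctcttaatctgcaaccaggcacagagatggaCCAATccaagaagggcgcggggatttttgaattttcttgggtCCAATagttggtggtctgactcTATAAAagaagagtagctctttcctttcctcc
HIST1H3C: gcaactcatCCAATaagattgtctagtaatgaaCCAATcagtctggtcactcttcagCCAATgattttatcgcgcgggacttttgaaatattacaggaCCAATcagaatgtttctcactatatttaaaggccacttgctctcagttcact
HIST1H3H: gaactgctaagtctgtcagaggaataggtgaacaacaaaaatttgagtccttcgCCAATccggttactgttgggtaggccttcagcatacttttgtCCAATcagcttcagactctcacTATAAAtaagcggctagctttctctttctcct
HIST1H3F: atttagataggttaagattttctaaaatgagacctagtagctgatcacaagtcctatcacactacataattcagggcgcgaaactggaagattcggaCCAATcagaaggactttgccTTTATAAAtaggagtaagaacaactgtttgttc
HIST1H3G: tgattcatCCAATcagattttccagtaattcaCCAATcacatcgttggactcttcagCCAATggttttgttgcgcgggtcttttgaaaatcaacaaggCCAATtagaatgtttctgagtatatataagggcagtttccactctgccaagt

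In each of these 5 promoters a CCAAT began 52 to 54 bases before the start. TATAAA began 32 bases before the start in HIST1H3B and HIST1H3H and 31 bases before it in HIST1H3F, and HIST1H3C and HIST1H3G did not hold it in this stretch. The 8 genes have 10 promoters in the table, since HIST1H3D and HIST1H3E have 2 start sites each. Searched on both strands from 250 bases before to 50 after the start, CCAAT was found in all 8 H3 genes and all 10 promoters. TATAAA was found in 6 of the 8 genes and 6 of the 10 promoters. Of all promoters of the table, 34.6% held CCAAT and 11.5% TATAAA. In HIST1H3E no TATAAA lay in the 150 bases before either start. Of the E2F-like octamers, TTTCGCGC was found in HIST1H3F alone (0.515% of all promoters), whereas TTTGGCGC (0.652%) and TTTCCCGC (1.63%) were found in none of the 8. Of the HINFP-like letters, GGTCCG was found in HIST1H3F alone (11.3% of all promoters) and ACGTCCGC in none (0.504%). The octamer ATTTGCAT, known from H2B promoters, was found in HIST1H3D alone (1.77%). The promoters of HIST1H3C and HIST1H3G were the most alike. They were identical at 91 of 150 bases (60.7%), without gaps, against 28.7 to 42.0% for the other 27 pairs. Both hold 4 CCAAT, but only HIST1H3C had significant NPAT and CASP8AP2 peaks, and it had them in hTERT-RPE1 cells only. Summits were not placed on these sequences, since they are on another build.

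NPAT and CASP8AP2 were found together at the TSS of 5 H3 genes, HIST1H3A, HIST1H3B, HIST1H3C, HIST1H3D and HIST1H3H, although not at each in both lines. At HIST1H3E, HIST1H3F, HIST1H3G, HIST1H3I and HIST1H3J no factor had a significant peak within 1 kb. These calls depend on the start site used. RefSeq lists 2 start sites for HIST1H3E, 957 bases apart on GRCh38, and 2 for HIST1H3D, 2007 bases apart, and in hTERT-RPE1 cells significant NPAT peaks lay 1323 bp upstream of the HIST1H3E TSS and 1874 bp upstream of the HIST1H3D TSS used here. Which RefSeq start the NCBI36 position stands for was not determined. A peak was called significant when its fold change exceeded 2 and its p-value was below 0.00001, where the fold change is the ratio of ChIP to IgG sequences, 1 added to each, scaled for the depth of the libraries. The p-value limit of the study was read as an upper limit, although its methods print the sign the other way. The p-value compares 1 ChIP with 1 IgG library, and the libraries have no replicates, so that all intervals given here are exact 95% intervals (Clopper-Pearson) of a count ratio and cover counting error only. Total reads per library are not known. The ratio of ChIP to IgG depth, from the constant between counts and fold change, ran from 0.858 to 1.23. Every listed region had at least 8 reads at its summit, so a gene without a listed region has no value, and a low level of binding there was not detectable at this depth.

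For CASP8AP2 in hTERT-RPE1 cells, 3 of the 10 genes had a significant peak (HIST1H3B, HIST1H3C and HIST1H3H), from 6 regions listed within 1 kb, while 0.112% of all 164571 regions of that library were called. In U2OS cells 4 genes had one (HIST1H3A, HIST1H3B, HIST1H3D and HIST1H3H), from 7 regions, against 0.0927% of all regions. NPAT had significant peaks at the same 3 genes as CASP8AP2 in hTERT-RPE1 cells, from 7 regions (0.259% of all regions called), and at the same 4 in U2OS cells, from 6 regions (0.108%). HIST1H3B and HIST1H3H were thus the 2 genes with both factors in both lines. E2F1 had a single H3 gene with a significant peak, HIST1H3B, in each line, from 6 regions in hTERT-RPE1 (0.707% of all regions called) and 6 in U2OS cells (0.748%). HINFP had none. Its library listed 2 regions at H3 genes in hTERT-RPE1 (0.393% of all regions called) and none within 1 kb in U2OS cells (0.50%). In the span from 1 kb before HIST1H3A to 1 kb beyond HIST1H3J, the H3 genes held 3 of the 14 significant CASP8AP2 peaks and 3 of the 25 NPAT peaks in hTERT-RPE1. For U2OS the numbers were 4 of 18 and 4 of 24. The rest lay elsewhere in the span. The plot of ratios by gene and library shows this split.

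**Figure D1:**
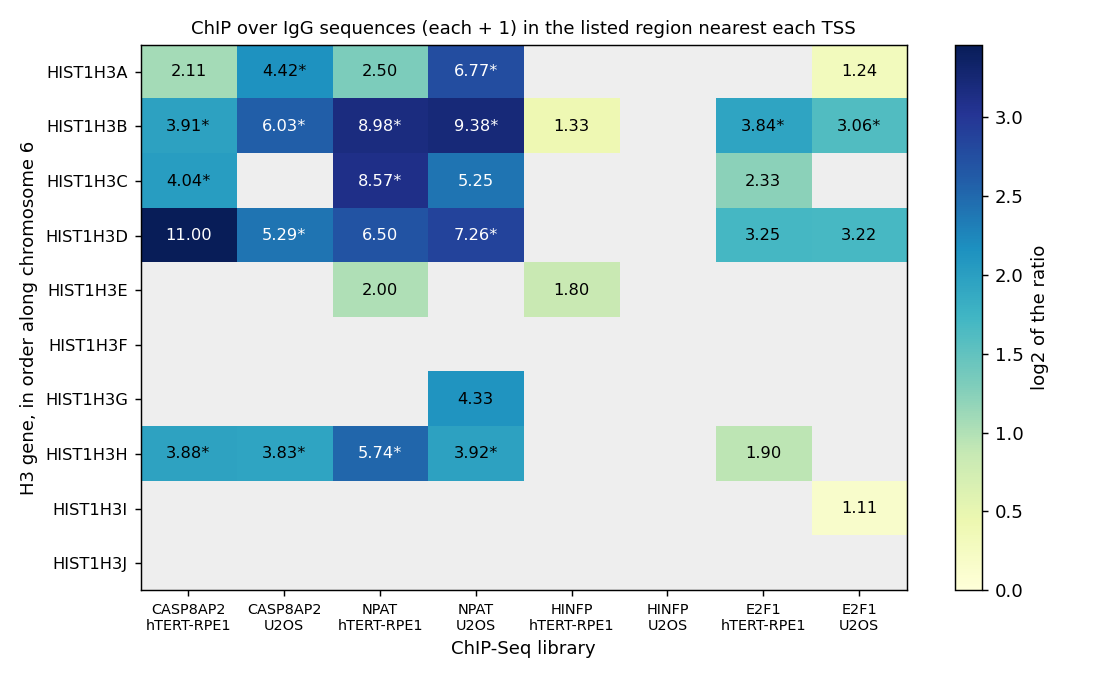
Ratio of ChIP to IgG sequences, each plus 1, in the listed region with its summit nearest to the TSS, for 10 H3 genes (rows) in 8 ChIP-Seq libraries (columns), colored by its log2. Asterisks mark significant peaks and grey cells have no listed region within 1 kb. The highest cell, 11.0 for CASP8AP2 at HIST1H3D in hTERT-RPE1 cells, rests on 10 ChIP and 0 IgG sequences.

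The region nearest to the HIST1H3B TSS held the most reads of those at H3 genes for each of CASP8AP2, NPAT and E2F1 in both lines. NPAT had 493 ChIP and 54 IgG sequences there in hTERT-RPE1 (ratio 8.98, fold change 8.34, interval 6.39 to 11.4) and 609 and 64 in U2OS cells (ratio 9.38, fold change 7.65, interval 5.99 to 10.2). By p-value these were the fifth of 299405 and the third of 478015 regions (2.45e-83 and 2.81e-90). CASP8AP2 had 132 ChIP and 33 IgG sequences in hTERT-RPE1 (ratio 3.91, fold change 3.59, interval 2.49 to 5.56) and 349 and 57 in U2OS cells (ratio 6.03, fold change 5.52, interval 4.23 to 7.55), which ranked 24 and 10 by p-value in their lists. E2F1 had 72 ChIP and 18 IgG sequences in hTERT-RPE1 (ratio 3.84, p-value 1.15e-08) and 48 and 15 in U2OS cells (ratio 3.06, p-value 4.19e-06), and its ranks were 474 and 767. The NPAT and CASP8AP2 peaks of HIST1H3B thus ranked nearer the top of their lists than the E2F1 peaks did. The E2F1 peaks still lay within the top 0.221% (hTERT-RPE1) and 0.611% (U2OS) of their lists. For each factor the intervals of the 2 lines overlapped. The NPAT regions were long, 3262 bp in hTERT-RPE1 and 4417 bp in U2OS cells. They reached 2314 and 3204 bp upstream of the TSS, on the side of HIST1H2AB. The CASP8AP2 regions were 1066 and 3670 bp long and the E2F1 regions 749 and 637 bp. In hTERT-RPE1 cells CASP8AP2 had a separate significant peak 1419 bp upstream, with 69 and 15 sequences. Both NPAT regions and the U2OS CASP8AP2 region covered this position, so their counts and ranks need not be those of HIST1H3B alone. Within the extent of that CASP8AP2 region, 3 regions of hTERT-RPE1 cells held 209 and 54 sequences. HINFP had 11 ChIP and 8 IgG sequences in a region 922 bp upstream in hTERT-RPE1 cells, with a ratio of 1.33. Per kb of region, HIST1H3B also had the most ChIP sequences for NPAT and CASP8AP2 in hTERT-RPE1 cells, and for E2F1 in both lines. In U2OS cells HIST1H3A had slightly more per kb for NPAT (141 against 138) and CASP8AP2 (98.2 against 95.1).

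HIST1H3H, the one H3 gene with peaks in the 27 Mb part of the cluster, had significant CASP8AP2 and NPAT peaks in both lines. CASP8AP2 had 92 ChIP and 23 IgG sequences in hTERT-RPE1 (ratio 3.88, interval of the fold change 2.31 to 6.08) and 68 and 17 in U2OS cells (ratio 3.83, interval 2.13 to 6.65). The summits of the 2 lines lay 11 bp apart. NPAT had 154 and 26 sequences in hTERT-RPE1 (ratio 5.74, interval 3.61 to 8.68) and 101 and 25 in U2OS cells (ratio 3.92, interval 2.11 to 5.33), with summits 7 bp apart. The NPAT fold change was 5.33 in hTERT-RPE1 and 3.20 in U2OS cells, and that of CASP8AP2 3.56 and 3.51, with overlapping intervals for each factor. E2F1 had 18 and 9 sequences in hTERT-RPE1 (ratio 1.90, interval 0.807 to 4.78) and no listed region within 1 kb in U2OS cells.

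Within 1 kb of its TSS, HIST1H3A had significant NPAT and CASP8AP2 peaks in U2OS cells and listed regions that missed the threshold in hTERT-RPE1 cells. In U2OS cells NPAT had 351 ChIP and 51 IgG sequences over 2496 bp (ratio 6.77) and CASP8AP2 229 and 51 over 2331 bp (ratio 4.42). In hTERT-RPE1 cells NPAT had 44 and 17 over 855 bp (ratio 2.50, p-value 0.000702) and CASP8AP2 37 and 17 over 791 bp (ratio 2.11, p-value 0.00797). The regions differed in extent, and in hTERT-RPE1 cells the reads further downstream were listed as separate regions. Among these was a significant NPAT peak 1185 bp downstream, with 58 and 9 sequences (fold change 5.48). Within the extent of the U2OS regions, the listed NPAT regions of hTERT-RPE1 cells held 112 and 30 sequences and covered 1965 bp. Those of CASP8AP2 held 59 and 22 and covered 1335 bp. The fold changes of the regions nearest to the TSS were 2.32 (1.35 to 4.49) in hTERT-RPE1 against 5.52 (4.17 to 7.68) in U2OS cells for NPAT. For CASP8AP2 they were 1.94 (1.10 to 3.79) against 4.05 (3.02 to 5.68). The intervals of the lines overlapped for each factor. E2F1 had 40 ChIP and 32 IgG sequences over 872 bp at this TSS in U2OS cells (ratio 1.24, interval of the fold change 0.813 to 2.18). This interval lay apart from those of NPAT and CASP8AP2 there, which belong to longer regions. Within the extent of these longer regions, E2F1 also had a significant peak 1072 bp downstream (fold change 2.98). Its interval, 1.82 to 5.4, overlapped those of NPAT and CASP8AP2.

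At HIST1H3C the significant peaks within 1 kb were those of hTERT-RPE1 cells. In hTERT-RPE1 cells NPAT had 376 ChIP and 43 IgG sequences over 3454 bp (ratio 8.57, fold change 7.95, interval 5.91 to 11.4, p-value 8.78e-63), the eighth of its list. CASP8AP2 had 100 and 24 (ratio 4.04, p-value 2.4e-11), and E2F1 had 27 and 11 (ratio 2.33, p-value 0.00774). In U2OS cells CASP8AP2 and E2F1 had no listed region within 1 kb. The nearest CASP8AP2 summit was 1796 bp away, with 9 ChIP and 5 IgG sequences, and the nearest significant one 10925 bp away. NPAT in U2OS cells had only a region 974 bp upstream, with 20 ChIP and 3 IgG sequences, 9 reads at its summit and a p-value of 0.000794. The U2OS list held 2 NPAT regions within the extent of the hTERT-RPE1 region, with 31 ChIP and 8 IgG sequences in all, and they covered 875 of its 3454 bp. Reads outside listed regions have no value, so no fold change was taken over this extent.

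HIST1H3D had significant peaks of both factors in U2OS cells, where NPAT had 137 ChIP and 18 IgG sequences (ratio 7.26, fold change 5.92, interval 3.78 to 10.8) and CASP8AP2 73 and 13 (ratio 5.29, fold change 4.84, interval 2.83 to 10.1). In hTERT-RPE1 cells the counts near the TSS were low. NPAT had 25 and 3 (ratio 6.50, interval of the fold change 2.36 to 40.0), with a p-value of 1.77e-05 that missed the threshold, and CASP8AP2 had 10 and 0 in a region 921 bp downstream. The ratio of 11.0 of the latter rests on the added count of 1. The fold changes of NPAT, 6.03 (hTERT-RPE1) and 5.92 (U2OS), were close, while the ChIP counts, 25 and 137, were not, over regions of 616 and 1782 bp. In hTERT-RPE1 cells a significant NPAT peak lay further off, with its summit 1874 bp upstream of the TSS and with 153 ChIP and 24 IgG sequences over 2120 bp. Another lay 1527 bp downstream, with 27 and 3. In U2OS cells CASP8AP2 had a significant peak 1819 bp upstream, with 125 and 27 sequences. An NPAT region there, 1300 bp upstream with 22 and 8 sequences, missed the threshold. E2F1 had 12 and 3 sequences in hTERT-RPE1 (ratio 3.25) and 28 and 8 in U2OS cells (ratio 3.22), neither of them significant.

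Among the other 5 genes, HIST1H3F and HIST1H3J had no listed region within 1 kb in any library. HIST1H3E had an NPAT region with 15 ChIP and 7 IgG sequences, 719 bp downstream (ratio 2.0), and a HINFP region with 8 and 4 (ratio 1.80), both in hTERT-RPE1 cells. HIST1H3G had only an NPAT region 960 bp downstream in U2OS cells, with 12 and 2 sequences (ratio 4.33). HIST1H3I had only an E2F1 region 629 bp away in U2OS cells, with 9 and 8 (ratio 1.11). These regions had 8 to 10 reads at their summits, at or near the lowest height listed. Around HIST1H3F the nearest NPAT region of any kind lay 5924 bp away in hTERT-RPE1 and 10306 bp away in U2OS cells. The nearest significant NPAT peak to HIST1H3J was 2364 bp away in hTERT-RPE1 cells, with 254 ChIP and 35 IgG sequences, and 50846 bp away in U2OS cells. Just outside the limit of 1 kb lay an NPAT region at HIST1H3J in U2OS cells (1002 bp, 14 and 1 sequences) and the E2F1 region at HIST1H3A in hTERT-RPE1 cells (1077 bp, 78 and 7 sequences).

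Ranked by fold change, NPAT in hTERT-RPE1 cells went from HIST1H3B (8.34) over HIST1H3C (7.95), HIST1H3D (6.03) and HIST1H3H (5.33) to HIST1H3A (2.32) and HIST1H3E (1.86). Neighbors in this order had overlapping intervals, whereas those of HIST1H3A (1.35 to 4.49) and HIST1H3E (0.763 to 5.77) lay apart from those of HIST1H3B and HIST1H3C. In U2OS cells the order was HIST1H3B (7.65), HIST1H3D (5.92), HIST1H3A (5.52), HIST1H3C (4.28), HIST1H3G (3.53) and HIST1H3H (3.20). Here only HIST1H3B and HIST1H3H had intervals that did not overlap. For CASP8AP2 no 2 H3 genes were apart by their intervals in either line, and the fold changes of its significant peaks ran from 3.51 (HIST1H3H in U2OS cells) to 5.52 (HIST1H3B in U2OS cells). NPAT had the higher fold change in 7 of the 9 cases where a gene had regions of both factors in a line, and the intervals were apart in 1 of them, HIST1H3B in hTERT-RPE1 cells. The exceptions were HIST1H3D in hTERT-RPE1 cells, with the 0 IgG count, and HIST1H3H in U2OS cells, at 3.20 for NPAT and 3.51 for CASP8AP2. Both factors of a line share its IgG library, so their intervals are not independent, and an overlap does not show equal fold changes. Over the H3 genes with a listed region, the median ratio was 3.91 for CASP8AP2 and 6.12 for NPAT in hTERT-RPE1 cells, where the medians over all listed regions were 2.2 and 2.4. In U2OS cells the medians were 4.86 and 6.01, against 2.0 and 2.25 over all regions. For E2F1 they were 2.79 and 2.15, against 2.2 and 1.83, and for HINFP in hTERT-RPE1 cells 1.56 against 2.50. Most of all listed regions were not called significant. Over the significant regions alone, the median fold change was 16.5 for CASP8AP2 and 16.7 for NPAT in hTERT-RPE1, and 7.63 for each in U2OS cells. The significant peaks of these factors within 1 kb of H3 genes lay below these medians, except NPAT at HIST1H3B in U2OS cells (7.65). Among pairs of genes listed together in at least 4 libraries, the smallest median absolute differences of the log2 fold change were those of HIST1H3B and HIST1H3D (0.31 over 6 libraries) and HIST1H3C and HIST1H3H (0.36 over 4 libraries). These include low counts, such as 10 and 0 sequences for CASP8AP2 at HIST1H3D in hTERT-RPE1 and 20 and 3 for NPAT at HIST1H3C in U2OS cells.

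**Figure D2:**
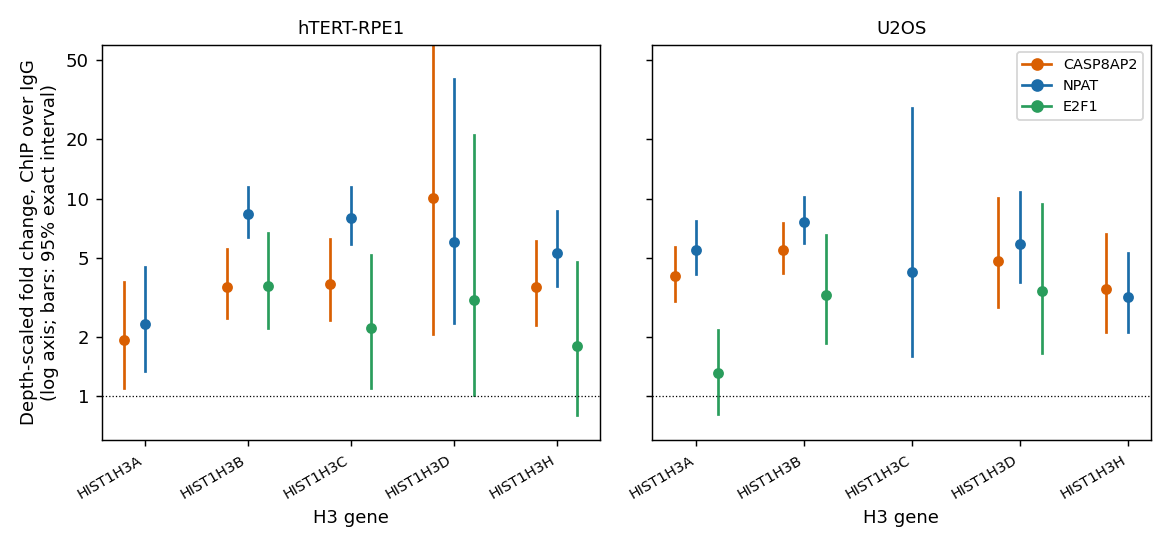
Depth-scaled fold change of ChIP over IgG (log axis) at the 5 H3 genes with a significant peak, in hTERT-RPE1 (left) and U2OS cells (right). Points are the fold changes of single libraries and bars their exact 95% intervals of counting error, with the bar of CASP8AP2 at HIST1H3D in hTERT-RPE1 cells running off the axis because its IgG count is 0. NPAT at HIST1H3B lies at 8.34 and 7.65.

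The summits kept an order along the gene. NPAT summits lay close to the TSS at 3 genes in both lines, 19 and 12 bp downstream in HIST1H3A, 54 and 0 bp in HIST1H3B and 26 and 19 bp in HIST1H3H (hTERT-RPE1 and U2OS cells, in this order). CASP8AP2 summits lay further into the gene, at 551 and 85 bp in HIST1H3A, 179 and 78 bp in HIST1H3B and 68 and 57 bp in HIST1H3H. In HIST1H3C in hTERT-RPE1 cells the summits of NPAT and CASP8AP2 were 78 and 92 bp downstream. In HIST1H3D they were 316 and 921 bp downstream in hTERT-RPE1 and 120 and 162 bp in U2OS cells. The CASP8AP2 summit was thus downstream of the NPAT summit in 9 of 9 cases, by a median of 125 bp in hTERT-RPE1 (14 to 605 bp) and 57.5 bp in U2OS cells (38 to 78 bp). The median of hTERT-RPE1 cells depends on the window, at 42 bp with windows of 500 bp and 328.5 bp with windows of 2 kb. The offset of 605 bp is that of HIST1H3D, where the 2 regions did not overlap and 10 ChIP against 0 IgG sequences made up that of CASP8AP2. With windows of 500 bp the order was the same in 7 of 7 cases, and with windows of 2 kb in 9 of 11. The cases are 5 genes in 2 lines and not replicates, and the order was seen in the data and then counted. The lists give no error for a summit, and the labels give 200 to 400 bp as the length of the sonicated DNA.

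E2F1 summits lay upstream of the TSS in hTERT-RPE1 cells at each of the 4 genes with a region, and in U2OS cells at HIST1H3B. They were 115 bp upstream in hTERT-RPE1 and 116 bp upstream in U2OS cells at HIST1H3B, the gene with significant E2F1 peaks. In hTERT-RPE1 cells they were 171 bp upstream at HIST1H3C and 172 bp upstream at HIST1H3H, and at HIST1H3D 22 bp upstream. In U2OS cells the HIST1H3D summit was 8 bp downstream and the HIST1H3A summit 85 bp downstream, at the same base as the CASP8AP2 summit. NPAT lay downstream of E2F1 in 6 of the 7 cases with both, and CASP8AP2 also in 6 of 7, with the HIST1H3A case as the exception. Only the HIST1H3B regions of E2F1 passed the threshold. The start sites on NCBI36 were taken as given and not checked against an annotation of that build. A shift of a start site would move all summits of a gene together and leave the order of the same regions as it is. A large shift, such as to the other RefSeq start of HIST1H3D or HIST1H3E, can make other regions the nearest. The order at such a start was not counted.

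**Figure D3:**
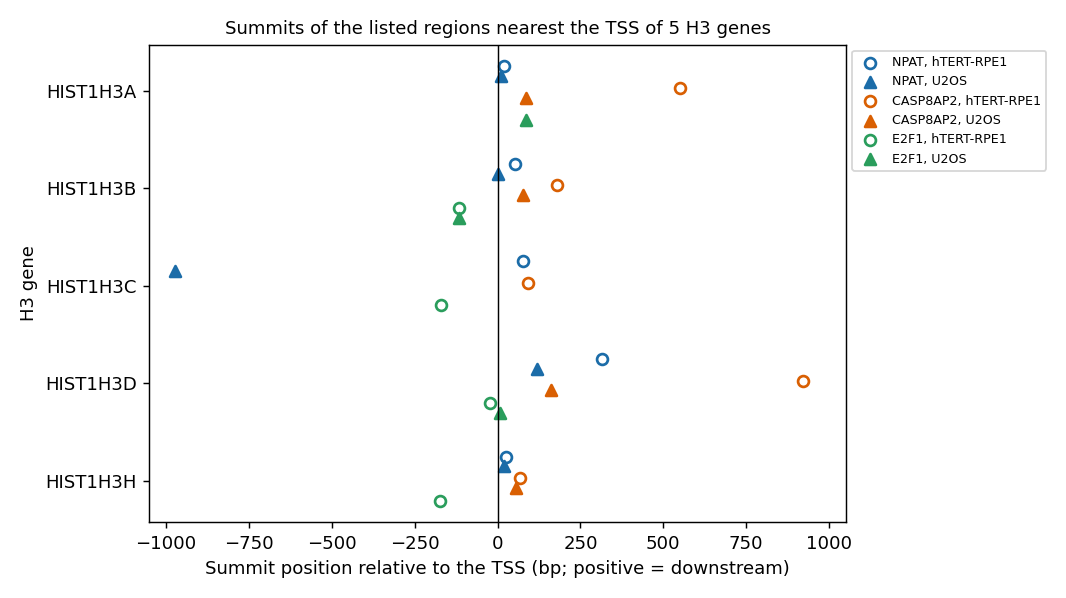
Position of the summit relative to the TSS (bp, positive values downstream along the gene) for the region nearest to the TSS, at the 5 H3 genes with a significant peak. Open circles are hTERT-RPE1 and filled triangles U2OS cells, in blue for NPAT, orange for CASP8AP2 and green for E2F1. CASP8AP2 lies to the right of NPAT in each of the 9 pairs, and E2F1 to the left of the TSS at HIST1H3B, HIST1H3C and HIST1H3H.

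The extent of the regions differed between the factors as well. Over the H3 genes, the median length of the nearest region was 1122.5 bp for NPAT and 1066 bp for CASP8AP2 in hTERT-RPE1 cells, and 1446 bp and 1699.5 bp in U2OS cells, against 281 to 298 bp over all regions of these 4 libraries. For E2F1 it was 546 and 677.5 bp, against 289 and 298 bp. Longer regions collect more IgG sequences too. The median IgG count at H3 genes was 21.5 to 34 in the NPAT and CASP8AP2 libraries, against 4 to 5 over all regions. The high NPAT ratios of HIST1H3B and HIST1H3C in hTERT-RPE1 cells rest on IgG counts of 54 and 43, unlike that of HIST1H3D for CASP8AP2 in hTERT-RPE1 cells.

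**Figure D4:**
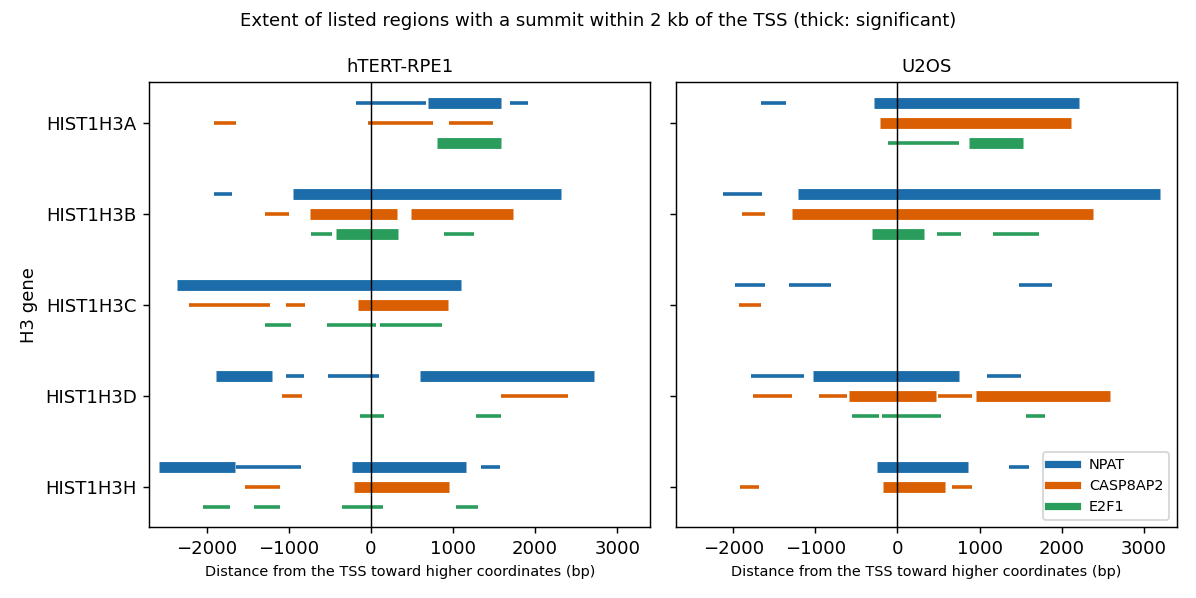
Extent of all listed regions with a summit within 2 kb of the TSS, as the distance from the TSS toward higher coordinates (bp), at the 5 H3 genes with a significant peak, in hTERT-RPE1 (left) and U2OS cells (right). Thick bars are significant peaks and thin bars regions that missed the threshold, in blue for NPAT, orange for CASP8AP2 and green for E2F1. HIST1H3C has long NPAT coverage in hTERT-RPE1 (3454 bp) and short thin bars only in U2OS cells.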

How the data were processed

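The authors sequenced the ChIP libraries on Illumina instruments (Genome Analyzer, HiSeq2000), mapped the reads to NCBI36 and searched each library for peaks. The aligner, the peak caller and the handling of duplicates are not given in the sources used here. The deposited counts of ChIP and IgG sequences are whole numbers without normalization. The deposited signal (height) is the read pile at the summit. The deposited fold change is a ratio equal to (ChIP + 1) / (IgG + 1) times a constant of the library. The deposited p-value is not adjusted and was recomputed from the counts and this constant to within 0.00492 of its value. The IgG libraries were used through these counts only.

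The 10 genes and their TSS were set with earlier results of these data known. Where several summits lay within 1000 bp, the nearest was used. All 10 genes were named, as the rule for named genes asks. Intervals are exact (Clopper-Pearson, 95%). No test between libraries was made, with 1 library per factor and line. Promoter sequences and strands are from RefSeq (GRCh38.p14), with 8 of 10 genes matched, so that HIST1H3I and HIST1H3J were not oriented. Motifs were exact letter matches. The assignment and the intervals were tested on simulated data. Alternatives were windows of 500 and 2000 bp, a fold change above 5, a p-value limit of 1e-10, the region with the most ChIP sequences, 0.5 added to the counts, the depth-scaled ratio and overlap with the TSS. Software was scipy 1.17.1, pandas 2.3.3 and numpy 2.4.6 under Python 3.11.15, with matplotlib 3.10.9 for the plots.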

Additional observations from a re-analysis of the deposited data

How the results depend on the processing

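Of 125 values recomputed under the alternatives, 108 stayed within 1.5 times the reported count or distance, or within the counting interval of the reported ratio, and 17 moved. Some could not move, since stricter limits cannot raise the 0 genes with a significant HINFP peak. The summit order was compared by its count alone, so that 9 of 9 cases and 9 of 11 with windows of 2 kb were taken as the same. Of the stricter limits, a fold change above 5 left significant peaks at 0 H3 genes (hTERT-RPE1) and 1 (U2OS) for CASP8AP2, and at 0 for E2F1 in each line. Genes with significant peaks of both CASP8AP2 and NPAT then numbered 0 in hTERT-RPE1 and 1 in U2OS. A p-value under 1e-10 left 2 genes for CASP8AP2 in U2OS cells, 2 genes with both factors there and 0 genes for E2F1 in each line. A window of 500 bp left listed regions at 3 genes for CASP8AP2 and 0 for HINFP in hTERT-RPE1 cells, and the median distance between CASP8AP2 and NPAT summits became 42 bp there. A window of 2 kb gave 2 genes with a listed HINFP region in U2OS cells, 2 genes with a significant E2F1 peak in hTERT-RPE1 cells and a median summit distance of 328.5 bp there. Regions that overlap the TSS left 0 genes for HINFP in hTERT-RPE1 cells. No paired analysis was possible because each factor has 1 library per line and no replicate numbers. The order of CASP8AP2 and NPAT summits was recounted under alternatives chosen after seeing the data. Without replicates and total reads, no difference between lines could be set against a spread.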

Other observations

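Between 1 and 2 kb from the H3 start sites lay 9 further significant peaks, described here after their values were seen. Downstream of HIST1H3A, on the side of HIST1H4A, E2F1 had 78 ChIP and 7 IgG sequences in hTERT-RPE1 cells, with a summit 1077 bp from the TSS (fold change 9.34), and 58 and 20 in U2OS cells, 1072 bp from it (2.98). NPAT had 58 and 9 sequences there in hTERT-RPE1 cells, 1185 bp downstream (5.48). Upstream of HIST1H3D, on the side of HIST1H2AD, NPAT had 153 and 24 sequences in hTERT-RPE1 cells, 1874 bp from the TSS (5.72). On the other side, 1527 bp downstream of the TSS, it had 27 and 3 (6.50). In U2OS cells CASP8AP2 had 125 and 27, 1819 bp upstream (4.12). Upstream of HIST1H3B, on the side of HIST1H2AB, CASP8AP2 had 69 and 15 sequences in hTERT-RPE1 cells, 1419 bp from the TSS (4.02). Upstream of HIST1H3E NPAT had 42 and 4 sequences in hTERT-RPE1 cells, 1323 bp from the TSS (7.98). The U2OS region there, 1333 bp from it, had 27 and 11 (1.90) and missed the threshold. Upstream of HIST1H3H, on the side of HIST1H2AI, NPAT had 57 and 4 sequences in hTERT-RPE1 cells, 1875 bp from the TSS (10.8), and no NPAT region was listed upstream within 2 kb in U2OS cells.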
